A study of Mus musculus with 21 samples.

Results

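Taste buds use extracellular ATP as a transmitter, and the 10 genes described here release ATP, break it down or receive it and its products. They were taken from a named list, namely Calhm1, Calhm2, Calhm3, Panx1, Entpd2, Nt5e, P2rx2, P2ry1, P2ry2 and Adora2b, and each was found by its symbol at exactly 1 locus, among 43193 gene symbols in all. RNA came from circumvallate taste buds of wild-type C57BL/6J mice aged 20 to 24 weeks, and cDNA was primed with oligo(dT). The labels name 7 Hungry, 7 Satiated and 7 Ad lib libraries, 21 in all, and do not say whether animals were pooled. The deposited expression table holds 32052 loci under 3 condition letters, and 0 loci differed between conditions in any value. Every level below is therefore the authors' mean over the pooled libraries, with no value per library, no Hungry, Satiated or Ad lib level, and no test between feeding states.

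Type II taste cells, the receptors for sweet, bitter and umami, release ATP through a channel of CALHM1 and CALHM3 subunits rather than from vesicles. ATP then acts on P2X receptors of gustatory nerve fibres and on P2Y receptors of taste cells. Glia-like type I cells carry NTPDase2, the product of Entpd2, which removes phosphates from ATP. Ecto-5′-nucleotidase, the product of Nt5e, turns AMP into adenosine, a ligand of the A2B receptor encoded by Adora2b.

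Fragments count as compatible only where they match an annotated transcript, so the ends of the deposited gene models are shown beside the values. The last 30 bases of the longest protein-coding model of 4 genes are shown, from GENCODE M21 transcripts on GRCm38, 5′ to 3′. Capitals mark a stop codon in the Calhm1 and Calhm3 models and the polyadenylation signal AATAAA in the Adora2b and Nt5e models. The windows are chr19:47141035-47141064 and chr19:47151609-47151638 on the minus strand for Calhm1 and Calhm3, and chr11:62266424-62266453 and chr9:88372063-88372092 on the plus strand for Adora2b and Nt5e.
Calhm1: gaagtggccacctacttcagcaaagtgTGA
Calhm3: accaagctatgccaccagctcaatgtaTAG
Adora2b: aaagaAATAAActttaaaaggtgattccca
Nt5e: ttccaaaAATAAAgctgaagatatagtcct
The Calhm1 and Calhm3 models ended at the stop codon, with 0 bases after it, whereas the Adora2b model ran on for 728 bases and the Nt5e model for 1775. Of the 10 genes, 6 held AATAAA or its variant ATTAAA in the last 30 bases, searched on the transcript strand. The share among 58793 protein-coding GENCODE M21 transcripts was 44.1%. The models of Calhm1, Calhm2, Calhm3 and Panx1 held neither. A match or its absence describes these letters only.

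All 10 genes reached a mean of at least 10 compatible fragments per library, the level called detected here. Of 21555 protein-coding gene symbols 67.7% did so, as did 42% of all loci. Calhm2, Entpd2 and P2ry1 did so through loci shared with another gene, so detection of these genes alone is not known. Together the member loci carried 0.126% of all compatible fragments. Levels of different genes are compared below per kb of the gene's exons, since longer transcripts can give more fragments. How far fragments scaled with exon length after oligo(dT) priming was not tested, which limits every comparison per kb. The coefficient of variation, CV, is the root of the deposited variance divided by the mean. That variance measures spread within sets of libraries and leaves out differences between the sets. The variances fit sets of 8, 7 and 6 libraries, whereas the labels give 7 of each feeding state, and which set is which is not known.

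Among the ATP release genes, Calhm3 was far above its partner Calhm1. Calhm3 encodes the subunit that gives the taste ATP channel its fast gating, and it had 3778 compatible fragments with a CV of 0.106 (chromosome 19, 47151609 to 47157764). Calhm1 encodes the other subunit and had 43.2 compatible fragments with a CV of 0.450 (chromosome 19, 47141035 to 47144174). Both models are nearly equal in length, 1044 bases for Calhm3 and 1047 for Calhm1. Per kb of exon Calhm3 had 3619 compatible fragments and Calhm1 had 41.3, a ratio of 87.7. By total fragments, which include every fragment at the locus, Calhm3 had 7374 and Calhm1 had 276. The ratio per kb of exon was then 26.8. Calhm3 was above Calhm1 by more than their combined spread in either column. In percentile terms, Calhm3 lay above 98.0% of the 8696 detected loci that hold 1 gene symbol, per kb of exon, while Calhm1 lay above 26.7%.

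Calhm1 and Calhm3 also had the lowest compatible shares of the 10 genes. Compatible fragments were 15.6% of total fragments at Calhm1 and 51.2% at Calhm3. A share as low as that of Calhm3 or lower was seen at 6.55% of 7509 detected protein-coding loci with 1 symbol. At the other 8 genes the share ran from 74.5% at P2ry2 to 99.3% at Entpd2. Of 7506 detected protein-coding loci with 1 gene symbol, 1.49% had a model of coding sequence only, and Calhm1 and Calhm3 were the 2 member genes that did. Such models had a median compatible share of 37.3%, with quartiles of 15.4% and 78.3%, against 95.7% for the 7394 others. GENCODE M21 gives the same Calhm1 transcript 126 further bases at its 3′ end and 80 at its 5′ end, but adds 0 bases to Calhm3. Fragments from beyond the ends of a deposited locus are in neither column. The part of the short models in the low shares and in the Calhm3 to Calhm1 ratio was not tested.

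**Figure D1:**
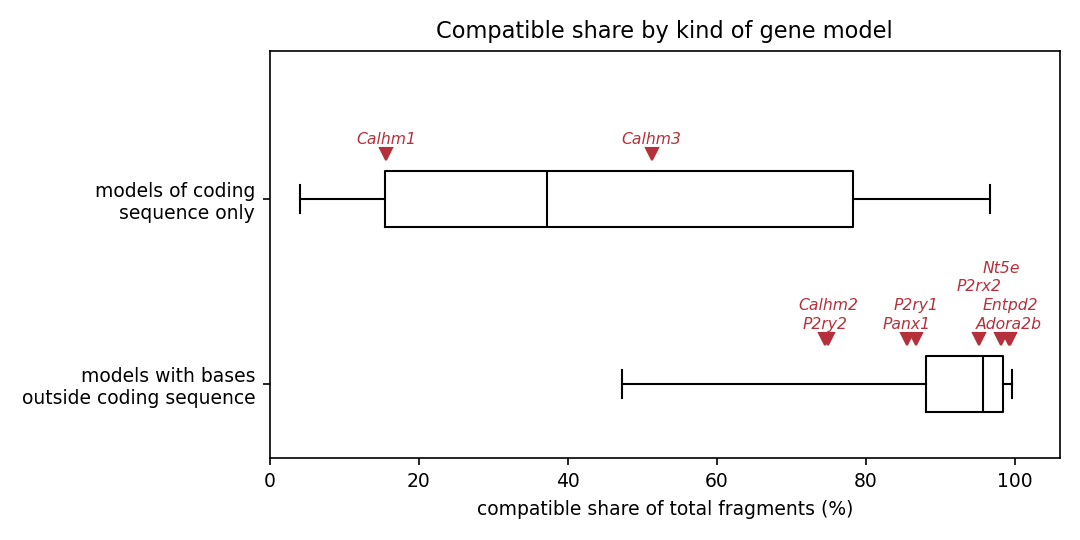
Share of total fragments that were compatible with an annotated transcript (horizontal axis, percent), for detected protein-coding loci with 1 gene symbol, by kind of gene model. Boxes span the quartiles with the median as a line, whiskers run from the 5th to the 95th percentile with shares above 100% drawn at 100%, and triangles mark the 10 genes; Calhm1 at 15.6% and Calhm3 at 51.2% stand apart from the other genes, which lie between 74.5% and 99.3%.

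Calhm2 and Panx1 are the other release genes. Panx1, a pannexin channel gene whose product can pass ATP, had 3498 compatible fragments out of 4091, and its CV was 0.139 (chromosome 9, 15005161 to 15045478). Per kb of exon it had 1167 compatible fragments, 3.10 times less than Calhm3, or 5.17 times less by total fragments. Its deposited model stops 3033 bases short of the 3′ end that GENCODE M21 gives the same transcript. Calhm2 belongs to the same family as Calhm1 and Calhm3, and all of these lie side by side on the minus strand of chromosome 19. Calhm2 and Calhm1 are 2740 bases apart, and Calhm1 and Calhm3 are 7434 apart. The Calhm2 locus had 505 compatible fragments with a CV of 0.190 (chromosome 19, 47090766 to 47138294). That locus also holds Pdcd11, a gene on the opposite strand, and 393 exon bases belong to both. The locus had 116 compatible fragments per kb of Calhm2 exon, and how many of them belong to Calhm2 is not known.

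Entpd2, the gene of the ATP-degrading enzyme NTPDase2, lay at a shared locus. The locus had 13472 compatible fragments out of 13564, and its CV was 0.134 (chromosome 2, 25395874 to 25409494). It also holds Npdc1, a gene expressed in neural tissue, on the same strand. If all fragments came from Entpd2, its level would be 6331 compatible fragments per kb of Entpd2 exon. Over the exons of both genes together it was 2485 per kb. Exon bases annotated to both numbered 612, out of 2128 for Entpd2 and 3906 for Npdc1. Entpd2 and Npdc1 were not separable from the deposited values.

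The merged annotation joins these genes in several transcripts. Of 23 transcripts at the locus, 19 are named Npdc1, and 4 of those span both genes. Both of the assembled ones, with 14 and 16 exons, begin at the start of Entpd2 and take 7 and 8 exons that overlap it. The other 2 are reference transcripts. A junction that leads from an Entpd2 exon into an Npdc1 exon is shown from a reference transcript (chr2:25400940-25406215, plus strand, GENCODE M21). It is a place where transcripts of both genes run together.
Entpd2 to Npdc1 junction: ctgctcttgcgccagATGCTACCACCTGTC
Lower case marks 15 bases of the Entpd2 exon and capitals mark 15 bases of the Npdc1 exon. Among the assembled transcripts 1 holds this junction. The other assembled transcript that spans both genes enters the same Npdc1 exon start from an earlier Entpd2 exon, as does the other reference transcript.

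Entpd2 itself had 1 new isoform assembled by Cufflinks. It leaves out exon 4 of the 9 exons of the coding reference transcript, which is 160 bases long and not a multiple of 3 (chromosome 2, 25398291 to 25398450). Exon 4 is also missing from a noncoding reference transcript of Entpd2 and from both assembled read-through transcripts. The junction formed without exon 4 is already annotated in that noncoding transcript, so "new" in its label below refers to the isoform. The exon is printed in capitals below with 15 bases of each neighbouring exon in lower case, followed by the junction formed without it, where capitals mark the exon that follows (chr2:25398291-25398450, plus strand, GENCODE M21).
Entpd2 exon left out: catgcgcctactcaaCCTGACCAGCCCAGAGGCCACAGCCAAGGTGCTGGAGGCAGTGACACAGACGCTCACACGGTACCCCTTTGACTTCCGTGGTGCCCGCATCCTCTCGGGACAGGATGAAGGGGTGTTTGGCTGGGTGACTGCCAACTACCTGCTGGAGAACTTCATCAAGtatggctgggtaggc
Entpd2 new junction: catgcgcctactcaaTATGGCTGGGTAGGC
Panx1 was the other gene with new isoforms, 2 in number. A new isoform was thus assembled for 2 of the 10 genes. Among 14584 detected protein-coding gene symbols 45.9% had 1 or more. The files give no level per transcript, so how much RNA each isoform contributed is not known here.

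**Figure D2:**
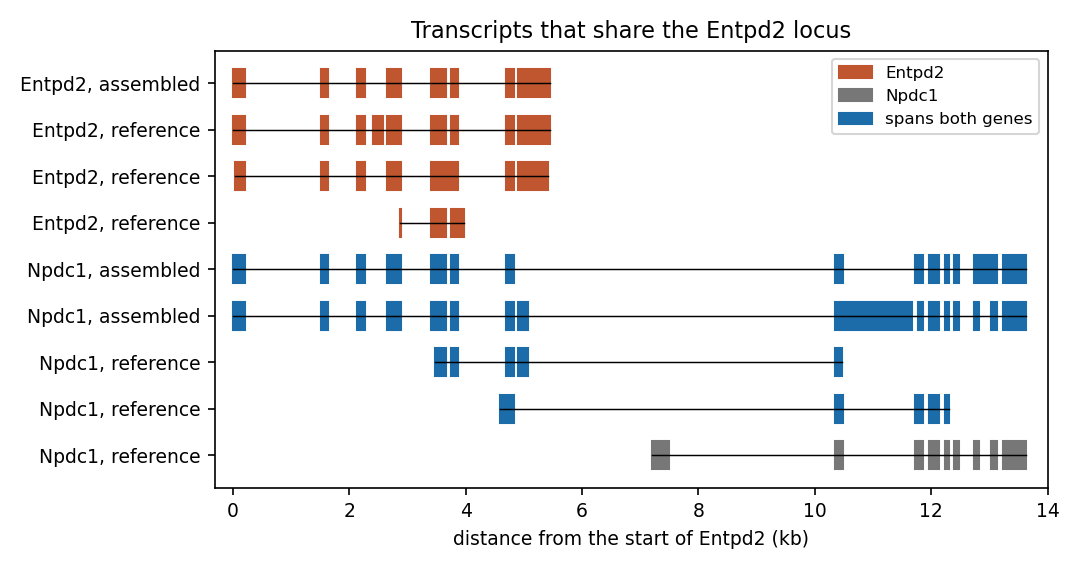
Exons (boxes) and introns (lines) of transcripts at the Entpd2 locus, by distance from the start of Entpd2 in kb, with the gene name and source of each transcript at the left. All 4 Entpd2 transcripts, the 4 transcripts that span both genes and 1 of the remaining Npdc1 transcripts are drawn; the coding Entpd2 reference, second from the top, is the only drawn transcript with exon 4.

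Nt5e, the gene of the AMP-degrading enzyme, had a lower level per kb than Adora2b. It had 1904 compatible fragments out of 1940, and its CV was 0.146 (chromosome 9, 88327197 to 88372092). Per kb of exon this was 226 compatible fragments. Its exon union of 8411 bases includes reference transcripts with retained introns. Divided by the longest transcript alone, 3995 bases, the level was 476 per kb. Nt5e thus ranked below P2ry2 by the exon union and above it by the longest transcript.

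The receptor genes for ATP and ADP covered a narrower range. P2ry2 encodes a receptor for ATP and UTP and had 1033 compatible fragments out of 1387, and its CV was 0.155 (chromosome 7, 100996572 to 101011991). P2ry1 encodes a receptor for ADP, and its locus had 950 compatible fragments out of 1096, and its CV was 0.169 (chromosome 3, 61001639 to 61008982). P2ry1 shares 992 exon bases with RP24-159H19.2 on the opposite strand, and the part of each in the locus value is not known. P2rx2, a subunit of the ATP-gated channel of gustatory nerves, had 164 compatible fragments out of 172, and its CV was 0.240 (chromosome 5, 110339812 to 110343035). Per kb of exon the compatible levels were 344 for P2ry2, 221 for P2ry1 and 85.2 for P2rx2. P2ry2 was 4.04 times above P2rx2, beyond their combined spread, and by total fragments the ratio was 5.16.

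Adora2b, the adenosine receptor gene, had the lowest CV of the 10 genes. It had 2192 compatible fragments out of 2211, and its CV was 0.0990 (chromosome 11, 62248984 to 62266453). Per kb of exon it had 1188 compatible fragments, 3.45 times the level of P2ry2 and 13.9 times that of P2rx2. By total fragments these ratios were 2.59 and 13.4. Adora2b and Panx1 did not differ beyond their spread, at 1188 and 1167 per kb. With the longest transcript or total fragments, Panx1 was the higher of this pair, again within the spread.

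Per kb of exon, the 7 genes with a locus of their own ranked Calhm3, Adora2b, Panx1, P2ry2, Nt5e, P2rx2 and Calhm1. Adora2b and Panx1 were the neighbours in that order closer than their combined spread. Combined spread leaves out the choice of exon length, which reversed the order of P2ry2 and Nt5e. By the longest transcript Nt5e stood at 476 per kb and P2ry2 at 344. Shared loci placed P2ry1 beside Nt5e, at 221 and 226 per kb and within the spread, and Calhm2 between P2ry1 and P2rx2. By total fragments Calhm1 stood at 264 per kb of exon, beside Nt5e at 231 and within their spread, and P2rx2 at 89.5 per kb was then lowest. The members' median was 285 compatible fragments per kb with shared loci included, and 344 over the 7 genes with a locus of their own. The median over the 8696 detected loci with 1 symbol was 134, and 154 over the protein-coding ones among them.

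**Figure D3:**
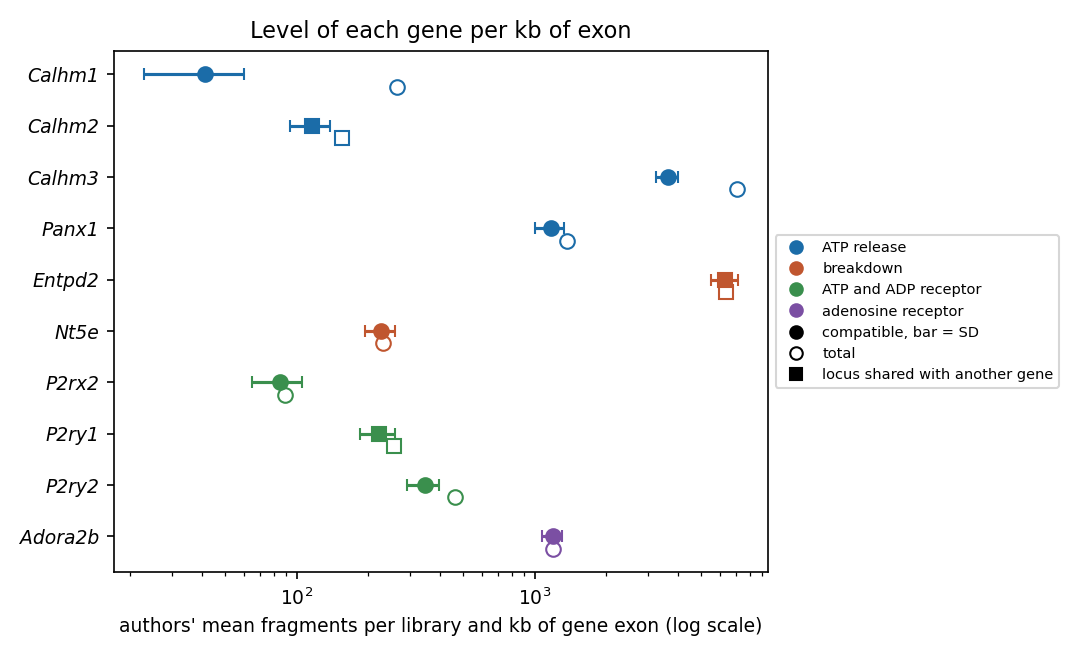
Authors' mean fragments per library and kb of gene exon (log axis) for each gene, coloured by role. Filled symbols are compatible fragments with bars of 1 SD from the authors' variance, open symbols are total fragments, and squares mark loci shared with another gene; Calhm3 at 3619 lies far right of Calhm1 at 41.3, and the gap between compatible and total is widest at Calhm1.

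Reads shared with related genes were checked by 50-base words of the reference transcripts. Calhm1, Calhm3, Panx1, P2rx2, P2ry2 and Adora2b shared 0 words with a transcript of any other gene on either strand. Nt5e shared 0.131% of its words. Calhm2 shared 7.01%, with Pdcd11, Entpd2 shared 25.9%, with Npdc1, and P2ry1 shared 22.0%, with Gm37035, the GENCODE M21 name of its opposite-strand neighbour. At this word length no other transcript matched Calhm3 or Calhm1.

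The spread of the 10 genes was low against the fitted variance, and less so against loci of like level. The compatible variance lay above the authors' fitted variance at 0 of the 10 genes, where 26.1% of the 13467 detected loci lay above it. That includes the 7 genes at loci of their own, where the share was 27.6% over loci with 1 symbol. The log2 ratio of variance to fitted variance ran from −1.73 at Adora2b to −0.52 at Entpd2. Its median was −1.05 over the 10 genes and −0.65 over all detected loci. Against a running median of the variance at loci of like level, 3 of the 10 genes lay above, namely Entpd2, Panx1 and Nt5e. Of all detected loci 49.9% did. By total fragments, 5 of the 10 genes lay above the running median, near the 49.6% of all detected loci.

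The CV was 0.0990 at Adora2b and 0.450 at Calhm1, the lowest and highest of the 10. The median CV was 0.151 over the 10 genes and 0.231 over all detected loci, and 8 genes lay below that last value. These medians were not matched for level. A CV taken from the fitted variance was 0.704 at Calhm1 and 0.161 at Entpd2, the loci with the fewest and the most compatible fragments of the 10. The variance also limits single libraries. At Adora2b no library lay farther than 42.4% of the mean from the mean of its own set, and at Calhm3 the limit was 45.3%. At Calhm1 the limit was 193%, which restricts little.

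**Figure D4:**
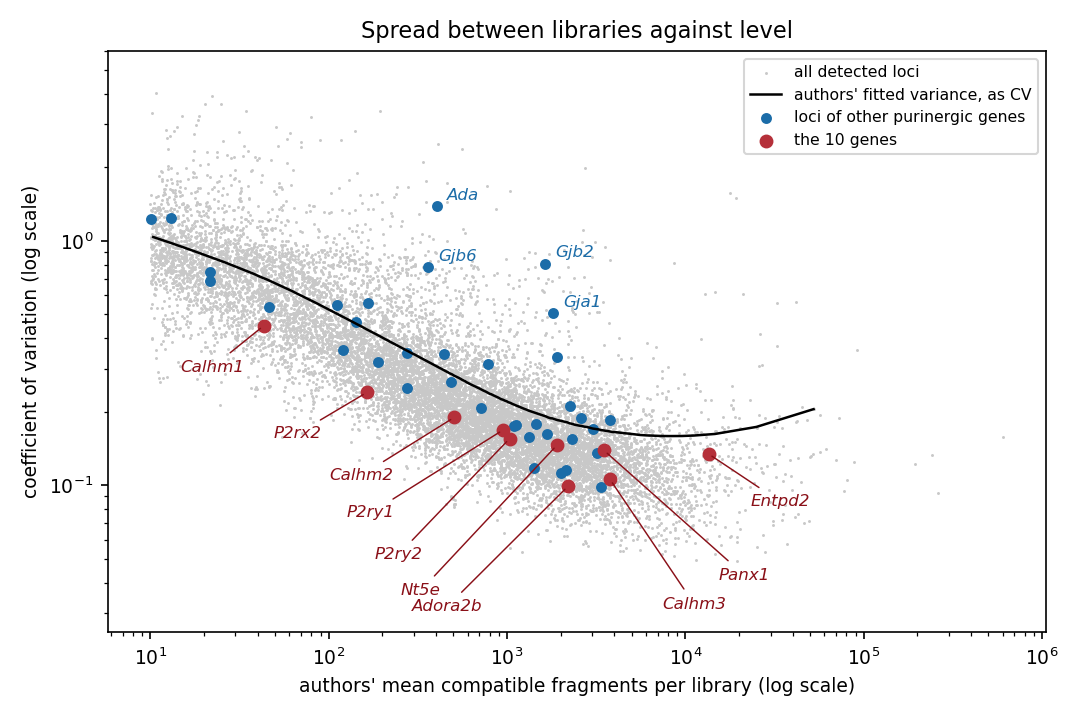
CV (log axis) against mean compatible fragments per library (log axis) at all 13467 detected loci, with the authors' fitted variance as a line. All 10 genes, in red, lie below the line with log2 variance ratios of −1.73 to −0.52, while other purinergic loci, in blue, lie on both sides and Ada, Gjb2, Gjb6 and Gja1 lie well above it.

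A list of 49 other purinergic genes shows what surrounded these genes. Each of the 49 had a value, 39 reached detection, and 18 did so at a locus holding no other symbol. Among all 21555 protein-coding gene symbols 67.7% were detected, the share to set beside each count by family below. Among P2X receptor genes, 4 of 6 were detected. P2rx4, whose product is an ATP-gated channel of many epithelia and immune cells, had 2251 fragments at its own locus, or 680 per kb of exon and thus more than P2rx2. P2rx3, which forms the nerve receptor together with P2rx2, lay at a locus with Ssrp1, a widely expressed chromatin gene, that had 3366 fragments, so its own level is unknown. P2rx6 and P2rx7 lay at shared loci of 443 and 111 fragments. P2rx1 and P2rx5 had 2.48 and 0.574 fragments.

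Among other P2Y receptor genes, 4 of 6 counted as detected. P2ry12, P2ry13 and P2ry14 counted through 1 locus of 8 symbols with 1121 fragments, which says nothing of each. P2ry6 had 13.1 fragments, P2ry10 had 5.30 and P2ry4 had 2.98. Of the other adenosine receptor genes, Adora1 shared a locus of 121 fragments with Mybph, Adora2a had 10.1 fragments and Adora3 had 0.279. Adora2b therefore stood above the other adenosine receptors, at 1188 fragments per kb against at most 20.9 for Adora1 and 0.0840 for Adora3.

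Of the 9 genes listed as surface hydrolases besides Entpd2 and Nt5e, 8 were detected. Enpp2 and Enpp3, listed by family as ectonucleotide pyrophosphatase genes, had 1082 and 1072 fragments per kb. What their products degrade in this tissue was not tested. Entpd3, an enzyme that degrades ATP and ADP, had 355 per kb, and Alpl, an alkaline phosphatase, had 1.70 fragments in all. Acpp, whose product can make adenosine from AMP, had 487 fragments at a shared locus. Among other release genes, 9 of 11 were detected. Vdac1, a mitochondrial channel gene, had 990 fragments per kb, and Gjb2 and Gja1, gap junction genes, had 679 and 581. Slc17a9, the vesicular nucleotide transporter gene, had 142 compatible against 1109 total fragments, a compatible share of 12.8% close to that of Calhm1. Panx3 had compatible fragments in 1 library only, to judge by their variance, while its total fragments were 3.83 with a CV of 1.55.

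All 4 internal relatives of Entpd2 were detected, with Entpd5 at 315 fragments per kb at its own locus. Of genes that clear or carry adenosine, 8 of 10 were detected, among them the nucleoside transporter gene Slc28a3 with 2319 fragments and the adenosine deaminase gene Ada with 404. Median level per kb of the 18 genes at their own loci was 248, and that of the 7 member genes at theirs was 344. Of the 36 detected loci of the 49 genes, 15 lay above the fitted variance, with a median log2 ratio of −0.25. Over all 13467 detected loci the share above was 26.1% and the median −0.65.

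Cell type markers place these levels in the tissue. Type II genes were abundant, with Gnat3 at 24576 fragments and Pou2f3 at 4137. The type III genes Otop1 and Pkd2l1 had 13734 and 4860 fragments, and the type I potassium channel gene Kcnj1 had 7919. The type I transporter gene Slc1a3, at a shared locus, had 9.87 compatible against 443 total fragments. The sensory neuron markers Isl1 and Prph were low, at 4.86 and 5.70 fragments, while P2rx3 could not be separated from Ssrp1. The part of nerve RNA in the P2rx2 level was not tested. Stratified epithelium was present, with Krt4 at 19096 fragments and Krt13 at 17703, and its part in the members' levels was not tested. The fibroblast collagens Col1a1, Col1a2 and Col3a1 had 0.180, 5.31 and 5.32 fragments, although Pdgfra had 814 at a locus with 1 microRNA gene. The endothelial genes Pecam1, Kdr and Cdh5 had 42.6, 10.7 and 0.0403 compatible fragments, and Cdh5 had 209 total fragments. The squared CV of Kdr was 16.3, near the 17.5 to 18.4 of loci seen in 1 library. The leukocyte gene Cd3e was listed at 0, Ptprc had 47.4 fragments with a CV of 2.14, and Csf1r lay at a shared locus of 511. In whole taste buds, more cells of a type and more RNA per cell cannot be told apart.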

How the data were processed

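Circumvallate taste bud RNA of 21 libraries was profiled, in groups given by the sample titles. Trimmomatic, FastQC, TopHat, Bowtie2, Cufflinks, Cuffdiff and build GRCm38.p4 are the tools and build that the submitters' processing notes name, with no version or setting. Per the file headers, each locus has a deposited signal, which is a mean of fragments after size-factor scaling, together with its variance and a fitted variance. Compatible fragments summed to 21881979 and total fragments to 23769781 for an average library. The conditions hold identical values, so no contrast, replicate error or test was possible. Loci seen in 1 library (relative tolerance 0.0001) numbered 474, 667 and 454 at the variance ratios of library sets of 8, 7 and 6 when 21 is the divisor, which gives the limit on single libraries. With 18 degrees of freedom each CV would be 1.08 times larger.

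Transcripts of the merged annotation were placed in loci by position. A gene counted as detected where a locus that holds it had at least 10 compatible fragments. GENCODE M21 on GRCm38 gave coding sequence and transcript sequences. Of 83760 spliced reference transcripts present in both, 97.7% had the same introns. Combined spread is the root of the summed squared SDs of both genes, with SD from the authors' variance. The running median took 201 loci ordered by mean. The steps on set sizes, the limit and the running median were tested on simulated data. The 10 genes, the 49 others and the markers were chosen with earlier results of these data known. Named genes were all 10, all receptors of the listed families, the 8 other genes highest per kb at their own loci, and genes sharing a member's locus. Slc17a9, Slc28a3, Ada, Acpp, Alpl, Panx3 and Gjb6 were named after their values were seen. Some markers of nerve and glia are not reported here. Likeness of pattern between genes was not computed, since there is no value per library. Calculations used Python 3.11.15 with pandas 2.3.3 and numpy 2.4.6, and figures used matplotlib 3.10.9.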

Additional observations from a re-analysis of the deposited data

How the results depend on the processing

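All 10 genes were detected with at least 1 compatible fragment or by total fragments, 9 with at least 50 fragments and 7 at loci of their own. Of the 49 other genes 39 were detected, 45 with at least 1 fragment, 34 with at least 50, 41 by total fragments, but 18 at loci of their own. The count of genes above the fitted variance was 0, also at loci of their own or with at least 50 fragments. It was 3 with a running median and 5 by total fragments with a running median. The median level per kb was 285, or 410 by the longest transcript, 363 by total fragments, 344 at loci of their own and again 285 with all merged transcripts of each locus. The cause of these shifts was not tested. Single genes moved by more than 1 SD for 2 of 10 by the longest transcript, 3 of 10 with all merged transcripts and 5 of 10 by total fragments. No paired analysis was possible because the table holds no value per library. Leaving out libraries was not possible for the same reason. The depth of each library is unknown.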

Other observations

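Some other purinergic genes varied far more than the 10 genes described above. Ada, which inactivates adenosine, had a CV of 1.38 and a log2 ratio of variance to fitted variance of 4.35. The gap junction genes Gjb2, Gja1 and Gjb6 had CVs of 0.807, 0.507 and 0.782 and log2 ratios of 4.15, 2.87 and 2.57. Keratin genes of stratified epithelium also varied widely, with CVs of 1.58 at Krt13, 1.50 at Krt4 and 0.987 at Krt14, whereas Krt8 of taste bud cells had a CV of 0.0577. Whether stratified epithelium in some libraries bears on the spread of Ada and the gap junction genes was not tested, and without values per library it could not be.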
